A study of Arabidopsis thaliana with 24 samples.

Results

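The genes described here are 2 pectin methylesterases, AT3G10720 and AT5G64640, and AT3G17130, a member of the invertase and pectin methylesterase inhibitor family, in roots and rosette leaves of Arabidopsis thaliana. They were picked by name from earlier results on these arrays, and each is measured by 1 probe set annotated to it alone, out of 13333 genes with such a probe set and 22746 probe sets in all. Plants were wild type Col-0, grown in potting medium and harvested at 29 days. They were watered on days 0, 4 and 17 with nano-titania (TiO2) at 500 mg/L, with the KCl solution in which the titania was suspended, with nano-ceria (CeO2) at 500 mg/L, or with the millipore water in which the ceria was suspended. TiO2 plants therefore also received KCl, and CeO2 plants received none. The labels give the KCl strength both as 0.1 mM (sample descriptions) and as 0.1 M (treatment protocol). Each of the 4 treatments has 3 root arrays and 3 leaf arrays, 24 Affymetrix ATH1 arrays in 8 groups. Replicates are labelled biological, with no number of plants given for each.

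Pectin is the gel-like polysaccharide of the plant cell wall. Its main chain, homogalacturonan, is secreted with methyl esters on its sugars. Pectin methylesterases remove these esters in the wall and release methanol, after which calcium can cross-link the chains or polygalacturonases and pectate lyases can cut them. Proteins of the inhibitor family bind and block pectin methylesterases, and other members of the same family block invertases, the enzymes that split sucrose. Both activities are known for their part in growth, cell adhesion and responses to stress in roots and leaves.

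Each gene lies near a gene of the pectin methylesterase or inhibitor family in the RefSeq table of TAIR10.1. AT3G10720 (chromosome 3, 3354406 to 3357754) starts 30 bp after AT3G10710, another pectin methylesterase gene. AT5G64640 (chromosome 5, 25836514 to 25839220) lies 3782 bp from AT5G64620, an inhibitor family gene, with 1 other protein gene between them. AT3G17130 (chromosome 3, 5844277 to 5845220) is separated from AT3G17150 and AT3G17152, both of the inhibitor family, by 2037 and 3566 bp. None of the 4 neighbours has a named probe set here, so their signals are not used.

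Signals are on the log2 scale, a ± after a group mean is the SD (n = 3 arrays) and a ± after a difference is the standard error of the limma fit. A log2 difference of 1 is a doubling of signal. The tissues carried their markers: the 3 measured root markers, the beta-glucosidase PYK10 (AT3G09260) and 2 jacalin lectins, averaged 9.54 to 11.76 on root arrays and 3.83 to 6.50 on leaf arrays. The 4 measured leaf markers, all of photosynthesis, averaged 4.30 to 6.91 on root arrays and 10.67 to 12.73 on leaf arrays. Signals were compressed on 6 arrays, whose lower quartile exceeded 3.7, and these are called narrow arrays. In roots they are TiO2 replicate 2, KCl replicates 1 and 3 and water replicate 1, and in leaves KCl replicate 2 and CeO2 replicate 2. In whole organs, fewer cells of a type and less RNA per cell cannot be told apart.

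AT3G10720, a pectin methylesterase gene, was a leaf-high gene whose signal was low in leaves given KCl alone. In TiO2 leaves it read 8.43, 9.03 and 8.71. In KCl leaves it read 6.10, 5.35 and 4.91. Every KCl leaf array lay below every TiO2 leaf array, and the KCl leaf mean of 5.45 ± 0.60 was closer to the root level than to that of the other leaves. CeO2 leaves read 8.35, 8.76 and 7.52. Water leaves read 10.62, 9.98 and 9.36, the highest of all 8 groups. The CeO2 leaf arrays lay below the water leaf arrays without overlap, and so did the TiO2 leaf arrays.

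In roots AT3G10720 showed no such order. TiO2 roots read 6.59, 4.45 and 6.42, against 5.64, 5.51 and 3.62 in KCl roots. CeO2 roots read 5.23, 6.06 and 3.86, against 6.30, 4.36 and 3.83 in water roots. All 4 root groups overlapped, and each spread over a wider range than the gap between any pair of their means. From low to high the group means ran water roots (4.83), KCl roots (4.92), CeO2 roots (5.05), KCl leaves (5.45), TiO2 roots (5.82), CeO2 leaves (8.21), TiO2 leaves (8.72) and water leaves (9.99). Neighbours in this order overlapped except at the step of 2.39 between TiO2 roots and CeO2 leaves and the step of 1.27 between TiO2 and water leaves.

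**Figure D1:**
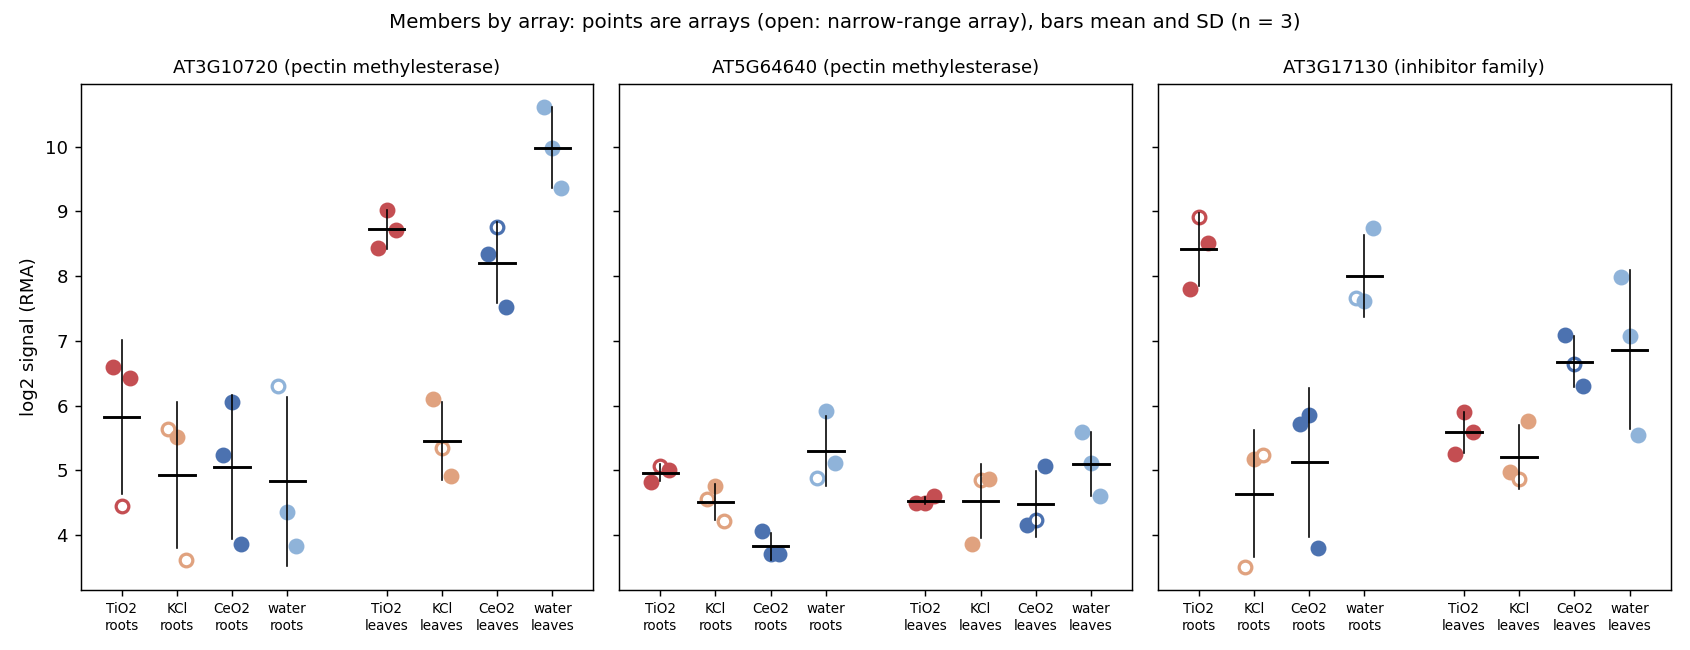
Log2 signal of AT3G10720, AT5G64640 and AT3G17130 on each of the 24 arrays, by treatment within roots and leaves. Points are arrays, open points are narrow arrays, and the bars give the mean and SD of 3 arrays. AT3G10720 stands low in KCl leaves (4.91 to 6.10) beside the other leaf groups, and AT3G17130 stands high in TiO2 and water roots (7.61 to 8.92) beside KCl and CeO2 roots (3.51 to 5.86).

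The leaf differences of AT3G10720 are the values it was chosen on, and they are given as a description. TiO2 leaves were 3.27 ± 0.42 above KCl leaves, a 9.63-fold higher signal. KCl leaves were at -4.53 ± 0.42 against water leaves, a 23.2-fold lower signal, and the TiO2 effect exceeded the CeO2 effect by 5.05 ± 0.60. The comparisons share the KCl and water arrays. The share of all probe sets that passed an adjusted p of 0.05 was 0.022% for TiO2 against KCl leaves, 0.189% for KCl against water leaves and 0.0176% for the particle difference in leaves. AT3G10720 was among those that passed in the last 2 of these. For the particle difference in leaves the call ended when any array other than TiO2 replicate 1 was left out, while the difference stayed between 4.70 and 5.37. The TiO2 to KCl leaf difference lay between 3.17 and 3.27 in the settings that left out no single array. With single arrays left out it ran from 3.00 to 3.59, and it passed in 1 of these 6 fits. The leaf markers averaged 11.86 to 12.73 on TiO2 leaf arrays, 10.67 to 11.91 on KCl leaf arrays and 11.49 to 12.15 on water leaf arrays, and their part in the result was not tested.

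Against water, the CeO2 leaf level of AT3G10720 was at -1.78 ± 0.42 (limma adjusted p = 1, 95% interval -2.72 to -0.84). In that comparison 0% of probe sets passed in limma and 503 had an unadjusted p under 0.05, among which this gene ranked 9 by size of p. This whole difference enters the particle difference in leaves, and its water arrays enter the comparison with KCl leaves. The gene was chosen on both, so the p and the rank may be favoured by that choice. In roots neither particle nor KCl moved it past the test: TiO2 against KCl gave 0.90 ± 0.87 (limma adjusted p = 0.755), CeO2 against water 0.22 ± 0.87 (limma adjusted p = 0.999) and KCl against water 0.09 ± 0.87 (limma adjusted p = 0.99). Their 95% intervals ran from -1.02 to 2.82, from -1.70 to 2.15 and from -1.83 to 2.02, and changes within these are not excluded. The CeO2 effect in roots minus that in leaves was 2.0 ± 1.01 (limma adjusted p = 0.967, with 0.0044% of probe sets passing), so that it was not shown to differ between the tissues. That value holds the same CeO2 leaf difference, which enters a value the gene was chosen on. The TiO2 effect in roots minus that in leaves was -2.37 ± 1.01, which holds the leaf difference the gene was chosen on and is given as a description.

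AT3G10720 was lower in roots than in leaves in both kinds of plants. The leaf arrays here also enter the differences the gene was chosen on, so the p-values may be favoured by that choice. In particle-treated plants roots averaged 5.44 and leaves 8.47, a difference of -3.03 ± 0.51 (limma adjusted p = 0.000128), and no root array reached the lowest leaf array. In control plants roots averaged 4.88 and leaves 7.72, a difference of -2.85 ± 0.51 (limma adjusted p = 0.000207). Of all probe sets, 13.6% and 15.4% passed as lower in roots in these comparisons. The difference by treatment was -2.90 for TiO2, -0.53 for KCl, -3.16 for CeO2 and -5.16 for water, and the KCl arrays of the tissues overlapped. Without any single array the difference stayed between -3.28 and -2.69 in treated plants and between -3.21 and -2.52 in control plants, and it passed each time.

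The comparison from which AT5G64640, the other pectin methylesterase gene, was picked is not known, so any of its p-values may rest on values that the choice used. It moved over a narrow range, from 3.7 to 5.91 on the 24 arrays, at the 27.2 to 59.9 percentile of the signals of its array. Its lowest group was CeO2 roots, with 4.07, 3.71 and 3.7. Water roots read 4.88, 5.91 and 5.11. Each CeO2 root array was below each water root array, at -1.47 ± 0.27 on the log2 scale (2.78-fold lower). The difference did not pass over all probe sets (limma adjusted p = 0.201, with 0.0176% of probe sets passing), although only 28 probe sets had a smaller p. Without any single array it stayed between -1.68 and -1.17. The root markers averaged 11.70 to 11.76 on CeO2 root arrays and 10.57 to 11.40 on water root arrays, which do not overlap, and their part in the result was not tested.

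TiO2 roots read 4.82, 5.07 and 5.01 for AT5G64640. KCl roots read 4.55, 4.76 and 4.22. The TiO2 arrays lay above the KCl arrays by 0.46 ± 0.27 on average, and the difference did not pass (limma adjusted p = 0.557), with 0.347% of all probe sets passing. KCl roots stood at -0.79 ± 0.27 against water roots, also without overlap and without passing (limma adjusted p = 0.265). The TiO2 effect exceeded the CeO2 effect in roots by 1.93 ± 0.38 (limma adjusted p = 0.0617, with 0.572% of probe sets passing). This last difference crossed the threshold after quantile normalization, at 2.12, and after centring on medians, at 2.06, and may be one the gene was picked on. With any single root array left out it did not pass (1.63 to 2.14, limma adjusted p from 0.0596 to 0.154).

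In leaves AT5G64640 varied little between groups. TiO2 leaves read 4.50, 4.50 and 4.60, against 3.86, 4.85 and 4.87 in KCl leaves. CeO2 leaves read 4.15, 4.23 and 5.07, against 5.59, 5.11 and 4.60 in water leaves. Each pair overlapped, with differences of 0.01 ± 0.35 and -0.61 ± 0.35 (limma adjusted p = 0.994 and 1). KCl leaves were at -0.57 ± 0.35 against water leaves (limma adjusted p = 0.569). The sign of the TiO2 difference turned under both other scalings, at -0.03 and -0.09. Roots and leaves differed by -0.11 ± 0.23 in treated and 0.09 ± 0.23 in control plants (limma adjusted p = 0.785 and 0.787), with intervals from -0.58 to 0.36 and from -0.38 to 0.57. From low to high its groups ran CeO2 roots (3.82), CeO2 leaves (4.48), KCl roots (4.51), KCl leaves (4.53), TiO2 leaves (4.53), TiO2 roots (4.97), water leaves (5.10) and water roots (5.30). Only CeO2 roots from CeO2 leaves, and TiO2 leaves from TiO2 roots, did not overlap among neighbours in that order.

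AT3G17130, the inhibitor family gene, was high in TiO2 and water roots and low in KCl and CeO2 roots. TiO2 roots read 7.80, 8.92 and 8.52. KCl roots read 3.51, 5.17 and 5.24. The TiO2 mean of 8.41 ± 0.57 lay 3.77 ± 0.64 above the KCl mean of 4.64 ± 0.98, a 13.6-fold higher signal. The KCl mean includes replicate 1, a dim value of 3.51 at the 15.4 percentile of the signals of its array. CeO2 roots read 5.71, 5.86 and 3.80. Water roots read 7.67, 7.61 and 8.74. All CeO2 arrays were below all water arrays, as all KCl arrays were below all TiO2 arrays.

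The difference between TiO2 and KCl roots, and that between the particle effects in roots, are the values AT3G17130 was chosen on. The second stood at 6.65 ± 0.91. AT3G17130 was among the 0.347% of probe sets that passed for TiO2 against KCl roots. That call ended without KCl replicate 1, 2 or 3 or TiO2 replicate 1 or 3, and the difference then lay between 3.20 and 4.08. The narrow arrays include KCl roots 1 and 3 and TiO2 root 2, and without all narrow arrays the difference was 2.98 ± 0.98, with a single KCl array left, whose spread is taken from the other groups. For the particle difference the call ended without TiO2 replicate 3 or water replicate 3, at 6.59 and 6.28. The root markers averaged 9.54 to 10.76 on TiO2 and 10.09 to 11.74 on KCl root arrays, and the leaf markers 5.62 to 6.15 and 4.30 to 5.93 in the same groups. Their part in the result was not tested.

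The other root comparisons of AT3G17130 share those arrays, and the whole CeO2 to water difference enters the particle difference in roots. Their p-values may be favoured by that choice. CeO2 roots stood at -2.88 ± 0.64 against water roots (limma adjusted p = 0.27, 95% interval -4.30 to -1.46), with 0.0176% of probe sets passing. KCl roots stood at -3.36 ± 0.64 against water roots (limma adjusted p = 0.0637), with 0.119% passing. Here same-numbered root arrays shared deviations from their group means, with r of 0.37, 0.34 and 0.18, and any pairing is inferred from this alone. With the replicate number as a block the limma adjusted p was 0.102. In that fit 0 probe sets passed in limma, while 2633 had an unadjusted p under 0.05. TiO2 roots lay 0.41 above water roots and CeO2 roots 0.48 above KCl roots, with overlapping arrays in each case.

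In leaves AT3G17130 followed another order. TiO2 leaves read 5.26, 5.90 and 5.60, against 4.98, 4.86 and 5.77 in KCl leaves. CeO2 leaves read 7.09, 6.64 and 6.31, against 7.98, 7.08 and 5.54 in water leaves. The TiO2 and KCl leaf arrays overlapped, as did the CeO2 and water leaf arrays, and the differences were 0.38 ± 0.53 and -0.19 ± 0.53 (limma adjusted p = 0.737 and 1). Each CeO2 leaf array was above each KCl leaf array, and KCl leaves were at -1.66 ± 0.53 against water leaves (limma adjusted p = 0.233). That difference passed without water leaf replicate 3, at -2.33 (limma adjusted p = 0.0477). The CeO2 effect in roots minus that in leaves was -2.69 ± 0.87 and did not pass (limma adjusted p = 0.663). That value holds the CeO2 root difference, which enters the particle difference the gene was chosen on. The TiO2 effect in roots minus that in leaves was 3.39 ± 0.87, which holds the root difference the gene was chosen on and is given as a description. Roots against leaves gave 0.64 ± 0.43 in treated and 0.29 ± 0.43 in control plants (limma adjusted p = 0.318 and 0.65). The root arrays in these comparisons also enter the differences the gene was chosen on.

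**Figure D2:**
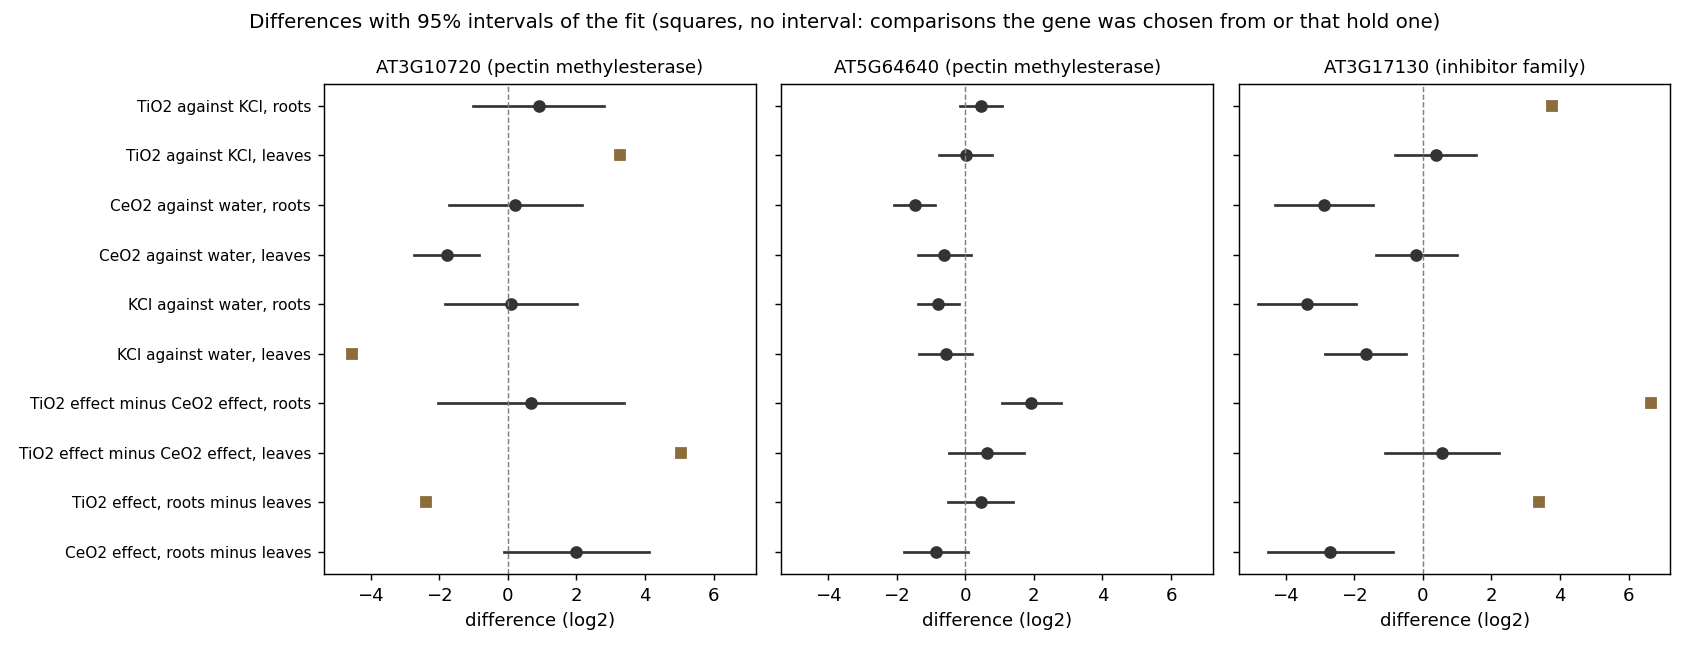
Difference of each gene in the comparisons within and between tissues, in log2 units. Round points carry the 95% interval of the fit, and squares without an interval mark the comparisons a gene was chosen from or that hold one of these. AT3G10720 departs from 0 mainly in leaves (3.27 for TiO2 against KCl, -4.53 for KCl against water), AT3G17130 mainly in roots (3.77 and -3.36), and AT5G64640 keeps within 2 of 0 throughout.

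From low to high the group means of AT3G17130 ran KCl roots (4.64), CeO2 roots (5.13), KCl leaves (5.21), TiO2 leaves (5.58), CeO2 leaves (6.68), water leaves (6.87), water roots (8.01) and TiO2 roots (8.41). Among neighbours only TiO2 and CeO2 leaves did not overlap. In roots, all 6 KCl and CeO2 arrays lay below all 6 TiO2 and water arrays for AT3G17130 (5.86 at most against 7.61 at least) and for AT5G64640 (4.76 against 4.82). Of all probe sets 0.598% did so in roots. The comparisons behind this split are partly those AT3G17130 was chosen on, and may include one AT5G64640 was picked on. AT3G10720 did not, with 6.06 against 3.83. In leaves none of the 3 genes showed this split, against 0.101% of all probe sets.

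Correlations between the genes from array to array were weak to moderate. Over the 12 root arrays AT5G64640 and AT3G17130 had a Pearson r of 0.67, which became 0.02 once the group means were removed. Over the 12 leaf arrays AT3G10720 and AT3G17130 had an r of 0.65, and 0.50 after that step. AT5G64640 and AT3G17130 had an r of 0.48 over the leaf arrays, and 0.43 after it. AT3G10720 and AT5G64640 had an r of 0.01 in roots and 0.28 in leaves, and -0.10 and -0.30 after it. AT3G10720 and AT3G17130 had an r of 0.14 in roots, and -0.12 after it. These points share their groups and arrays, and the coefficients are descriptions.

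The other pectin genes with a named probe set comprised 42 of the pectin methylesterase family, 10 of the inhibitor family, 22 pectate lyases, 3 polygalacturonases, 2 genes of homogalacturonan synthesis and 3 subtilases reported to process pectin methylesterases. None of these 82 passed for TiO2 against KCl or for CeO2 against water in limma, in roots or in leaves. Of all probe sets, 0.347% and 0.022% passed for TiO2 in roots and leaves, and 0.0176% and 0% for CeO2. An unadjusted p under 0.05 was met by 9 and 12 of them for TiO2 in roots and leaves, beside 12.5% and 15.5% of all probe sets, and by 7 and 1 for CeO2, beside 6.7% and 2.21%. For KCl against water 0 passed in limma in either tissue, beside 0.119% and 0.189% of all probe sets in roots and leaves. In that comparison 7 and 16 of the 82 had an unadjusted p under 0.05 in roots and leaves, beside 11.6% and 12.2% of all probe sets. The median difference of the 42 pectin methylesterases was -0.03, -0.12, -0.13 and 0.08 for TiO2 roots, TiO2 leaves, CeO2 roots and CeO2 leaves, beside -0.06, -0.07, -0.04 and 0.02 over all probe sets.

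AT3G10720 lay outside the range of the other family members in leaf comparisons it was chosen on. Its place there is a description. For TiO2 against KCl leaves the 42 others ran from -0.59 to 2.11, against its 3.27, and for KCl against water leaves from -2.71 to 0.71, against its -4.53. The lowest of those was AT3G49220, a pectin methylesterase gene, at -2.71 ± 0.50 (limma adjusted p = 0.077). AT3G49220 averaged 9.37 ± 0.13 in TiO2 leaves, 8.22 ± 0.92 in KCl leaves, 9.95 ± 0.40 in CeO2 leaves and 10.93 ± 0.88 in water leaves, so that KCl leaves held its lowest leaf mean as well. AT1G05310, of the same family, had the smallest p among them for KCl against water roots, at -1.76 ± 0.50 (limma adjusted p = 0.172). Among all 82 genes only AT3G09540, of the pectate lyase list, had a smaller p there, at -2.80 ± 0.68 (limma adjusted p = 0.127).

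**Figure D3:**
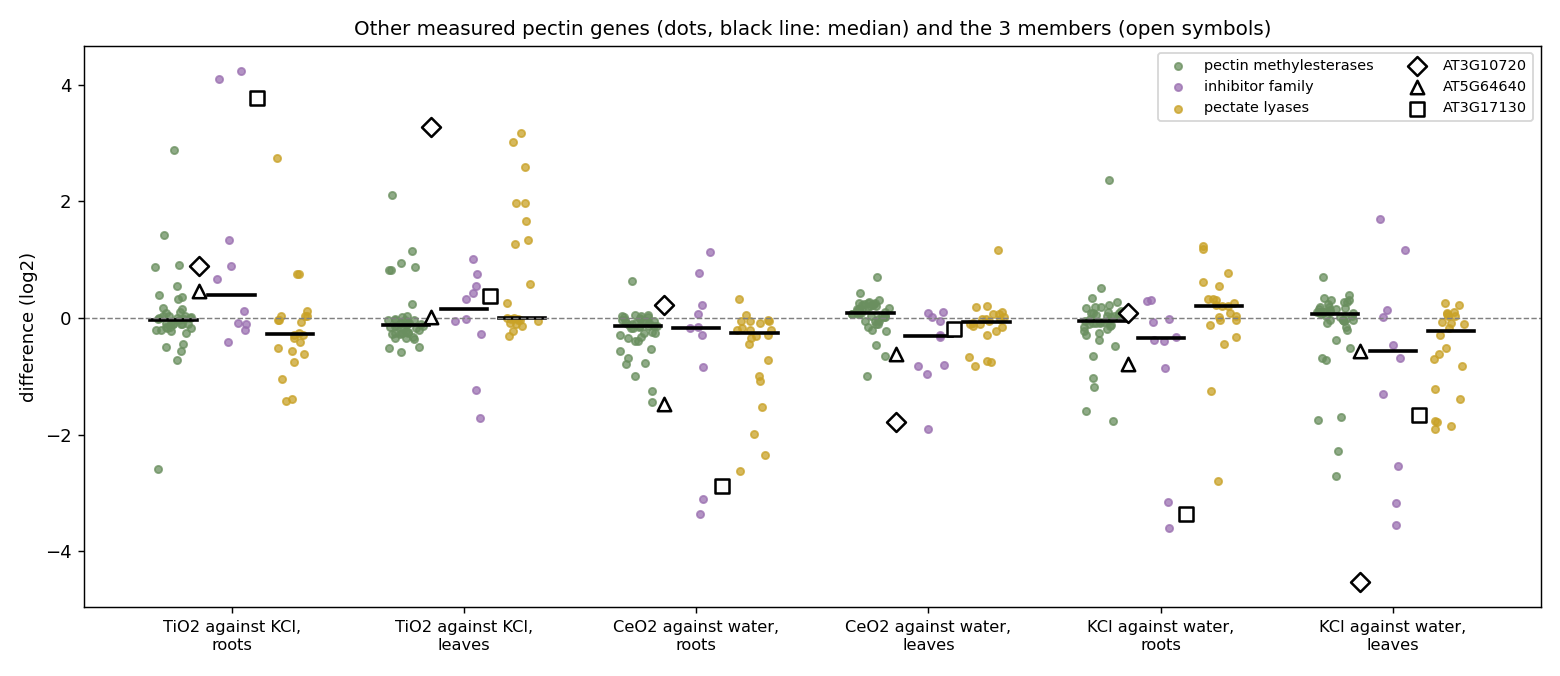
Differences of the other measured pectin methylesterase, inhibitor family and pectate lyase genes in the 6 comparisons within a tissue (dots, 1 per gene, with the median as a black line), and of the 3 genes described here (open symbols), in log2 units. AT3G10720 lies beyond the other pectin methylesterases at 3.27 and -4.53 in leaves, values it was chosen on, while 2 inhibitor family genes lie near AT3G17130 in roots.

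Among the 10 other inhibitor family genes the median difference was 0.40 for TiO2 against KCl roots and -0.16 for CeO2 against water roots. The range was wide, from -0.42 to 4.23 and from -3.37 to 1.14. Of the pectate lyase list AT3G09540 and AT3G53190 had the smallest p for TiO2 roots among all 82 genes, at 2.75 ± 0.68 and -1.39 ± 0.38 (limma adjusted p = 0.12 and 0.147). For CeO2 roots these were AT5G04310 at -1.53 ± 0.35 and AT3G09540 at -2.63 ± 0.68 (limma adjusted p = 0.323 and 0.364). In leaves AT3G07010 and AT1G67750, also pectate lyase genes, stood at 3.02 ± 0.67 and 1.97 ± 0.52 with TiO2 (limma adjusted p = 0.141 and 0.161). GAUT15 (AT3G58790), of homogalacturonan synthesis, was at -1.53 ± 0.40 for KCl against water leaves (limma adjusted p = 0.158). With CeO2 in leaves AT3G27400 and AT5G62360 were at 1.17 ± 0.47 and -1.90 ± 0.88 (limma adjusted p = 1 for both).

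For the difference between the TiO2 and CeO2 effects in roots, 1 of the 82 passed, AT3G09540 at 5.38 ± 0.96 (limma adjusted p = 0.041), where 0.321% of all probe sets passed in that direction. It averaged 8.03 ± 0.23 in TiO2 roots, 5.28 ± 1.19 in KCl roots, 5.45 ± 1.27 in CeO2 roots and 8.08 ± 0.56 in water roots. In this gene too the 6 KCl and CeO2 root arrays lay below the 6 TiO2 and water root arrays. The call ended in 10 of 12 fits with a root array left out, all but those without KCl replicate 2 or CeO2 replicate 1, and the difference ran from 4.75 to 6.02. The call also ended with the replicate number as a block, at 5.38 ± 0.99 (limma adjusted p = 0.072), and without the narrow arrays, at 4.56 (limma adjusted p = 0.314). In leaves AT3G07010 and AT5G63180 were at 3.84 ± 0.95 and 3.33 ± 1.0 for that difference (limma adjusted p = 0.309 and 0.33). Of TiO2 effects in roots minus those in leaves, AT3G07010 and AT1G02810, a pectin methylesterase gene, were at -3.64 ± 0.77 and -3.42 ± 0.85 (limma adjusted p = 0.055 and 0.101), where 0.207% of all probe sets passed.

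**Figure D4:**
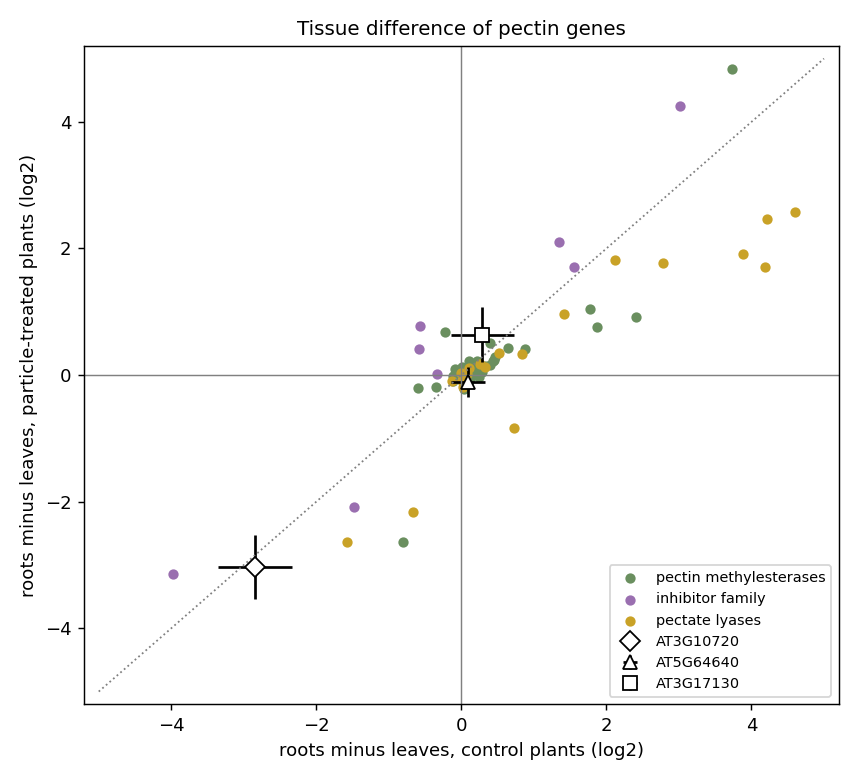
Root minus leaf difference in control plants (horizontal) and in particle-treated plants (vertical) for the measured genes of 3 pectin lists (dots) and the 3 genes described here (open symbols with standard errors), in log2 units. AT3G10720 lies at -2.85 and -3.03, low in roots on both axes, and AT5G64640 and AT3G17130 lie within 0.7 of 0.

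Of the 42 other pectin methylesterases, 8 passed as higher and 1 as lower in roots than in leaves of control plants. Over all probe sets 19.2% passed as higher and 15.4% as lower. In treated plants 1 passed as higher and 1 as lower, beside 15.5% and 13.6%. By direction alone, 34 were higher and 8 lower in control plants, and 28 and 14 in treated plants. AT4G02330, the family member that passed as lower in roots of treated plants, stood at -2.63 ± 0.44 (limma adjusted p = 0.000126). AT2G47550, which passed as higher there, stood at 4.83 ± 0.92 (limma adjusted p = 0.000461). AT2G47550 was also higher in roots than in leaves of control plants, at 3.73 ± 0.92 (limma adjusted p = 0.00363). Of the inhibitor family, AT1G62770 was higher in roots than in leaves of treated plants, at 4.25 ± 0.67, and AT4G25260 was lower, at -3.14 ± 0.57 (limma adjusted p = 7.33e-05 and 0.000297). In control plants the root minus leaf difference of AT4G25260 was -3.97 ± 0.57 (limma adjusted p = 2.11e-05). Of the 22 pectate lyases 9 passed as higher and 1 as lower in roots than in leaves of control plants, and 6 as higher and 2 as lower in treated plants. The extremes of roots against leaves in control plants were AT1G04680 (4.60 ± 0.73), AT3G53190 (4.22 ± 0.38) and AT1G67750 (4.18 ± 0.51) on the high side, with AT5G63180 at -1.58 ± 0.38 and the subtilase SBT3.5 (AT1G32940) at -2.14 ± 0.44 on the low side. AT1G04680 and AT5G63180 passed in treated plants as well, at 2.58 ± 0.73 and -2.64 ± 0.38 (limma adjusted p = 0.0113 and 2.77e-05).

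Among all named genes, those whose signal was most like each gene were ranked by Pearson r over the 12 arrays of the tissue in which its group means spanned the wider range. For AT3G10720, whose leaf group means spanned 4.53, these were AT5G22580, AT4G26650 and AT1G71410, with r of 0.966, 0.923 and 0.919. AT5G22580 averaged 10.43 ± 0.46 in TiO2 leaves, 7.11 ± 0.75 in KCl leaves, 10.04 ± 0.86 in CeO2 leaves and 11.01 ± 0.39 in water leaves, the same order as AT3G10720. For AT5G64640, whose root means spanned 1.47, they were AT4G36680, AT4G14090 and AT3G54400, with r of 0.966, 0.917 and 0.900. AT4G36680 had its lowest root mean with CeO2 (6.83 ± 0.71) and its highest with water (8.95 ± 0.74), as AT5G64640 had.

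For AT3G17130, whose root means spanned 3.77, the genes most like it were AT2G18910, TINY2 (AT5G11590), a transcription factor of the AP2/ERF family, and AT3G09540 of the pectate lyase list, with r of 0.926, 0.923 and 0.921 over the 12 root arrays. TINY2 averaged 8.17 ± 1.23 in TiO2 roots, 5.63 ± 1.30 in KCl roots, 5.36 ± 1.24 in CeO2 roots and 8.60 ± 0.22 in water roots. It shared with AT3G17130 the 2 high and 2 low root groups. These genes were ranked on the same arrays out of all named genes, so a high r is a description of these arrays.

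**Figure D5:**
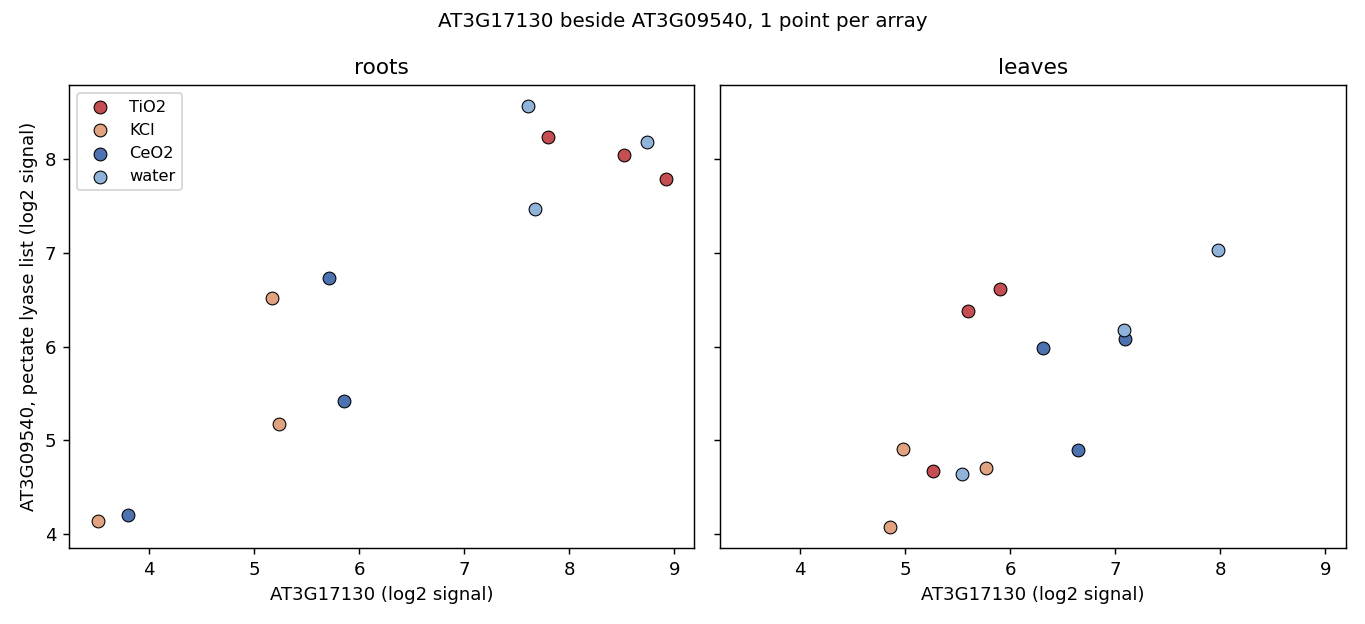
Log2 signal of AT3G17130 (horizontal) and of AT3G09540 of the pectate lyase list (vertical) on each array, roots on the left and leaves on the right, with points coloured by treatment. In roots the KCl and CeO2 arrays lie at 3.51 to 5.86 for AT3G17130 and the TiO2 and water arrays at 7.61 to 8.92. In leaves the treatments are not split in this way.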

How the data were processed

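RNA of roots and rosette leaves was hybridised to 24 Affymetrix ATH1 arrays, and the values analysed are the deposited log2 signals per probe set, which the authors made with RMA per the submitters' processing notes. Its version and the set of arrays it was run on are not given in the sources used here. Probe sets were tied to genes by GEO's platform annotation and Entrez IDs matched to the RefSeq table of TAIR10.1; 13484 of 22746 probe sets had 1 gene. No genome, promoter or protein sequence was used. No detection call accompanies the signals, and the number of arrays limits the precision.

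limma 3.58.1 in R 4.3.3 was fitted to the 12 arrays of a tissue, or to all 24 for comparisons between tissues, with a mean per group. Tests were two-sided, and p-values of each of 12 comparisons were adjusted by Benjamini-Hochberg across the 22746 probe sets, with a threshold of 0.05. The fits were tested on simulated data. The genes, the gene lists and the narrow-array limit were chosen with earlier results of these data known. A gene's difference has no p where the earlier report gives that gene there, where it passed within a tissue, or where a difference between tissues holds such a value. For AT5G64640 that comparison is not known, and its p-values are printed. Of the other pectin genes those named are the passing ones, up to 4, or the 2 with the smallest p, and for tissues the 3 largest each way; the 3 most like genes are named for each gene. Lists held locus codes written from memory of the families, and 6 genes were added by their RefSeq names. A gene with several probe sets is given by the one with the highest mean.

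Same-numbered arrays of groups compared within a tissue were checked for shared deviations from their group means over all probe sets. Root with leaf arrays, and TiO2 with CeO2 arrays, were not checked. Every pair correlated above 0.1 only for KCl against water roots (0.37, 0.34 and 0.18), where the block is given. Alternatives were another normalization, a filter on dim probe sets, a variance trend, the compared groups alone, the replicate block, and arrays left out. Python 3.11.15 with matplotlib 3.10.9 drew the plots.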

Additional observations from a re-analysis of the deposited data

Results flagged for a closer look

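The effects of the particles in the same tissue differed past the threshold for 3 genes. In roots the TiO2 effect exceeded the CeO2 effect by 6.65 for AT3G17130 and by 5.38 for AT3G09540 of the pectate lyase list. In leaves it exceeded it by 5.05 for AT3G10720. For AT3G09540 the difference no longer passed with the replicate number as a block (limma adjusted p = 0.072), or in most fits with a root array left out. With single arrays left out, the call ended in 11 of 12 fits for AT3G10720 and in 2 of 12 for AT3G17130. AT3G17130 and AT3G10720 were chosen on these values. TiO2 plants and their controls share KCl, while CeO2 plants and their controls share water, so particle and vehicle cannot be told apart in these differences.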

How the results depend on the processing

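Across the settings other than single arrays left out, 228 values of the 3 genes were recomputed: 211 kept their direction and side of the threshold, 8 lost a call, 5 gained one and 4 turned sign. For TiO2 against KCl roots 1 gene passed in the reported fit and 0 in the fit to the compared groups alone, with the replicate block or without the narrow arrays. For TiO2 against KCl leaves 0 passed as reported, and 1 (AT3G10720) among brighter probe sets, with a variance trend or with the replicate block. For KCl against water leaves the fit to the compared groups alone gave 0, against 1 as reported. For the particle difference in roots, 2 passed after quantile normalization or median centring and 0 without the narrow arrays, against 1. For that in leaves, 0 passed under those 3 settings, against 1. With single arrays left out the number ran from 0 to 1 for TiO2 against KCl in roots and in leaves and for both particle differences, and from 1 to 2 for KCl against water leaves.

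AT5G64640 turned sign for TiO2 leaves (-0.03 after quantile normalization, -0.09 after centring) and for the TiO2 effect between tissues (-0.01 without the narrow arrays), and AT3G10720 for KCl against water roots (-0.02 after centring). With single arrays left out, AT3G10720 ran from -0.28 to 0.96 for CeO2 roots, -0.41 to 0.83 for KCl against water roots and -0.06 to 1.36 for the particle difference in roots. AT5G64640 ran from -0.33 to 0.18 for TiO2 leaves, -0.07 to 0.22 between tissues in control plants and -0.20 to 0.03 in treated plants. AT3G17130 ran from -0.86 to 0.37 for CeO2 leaves and -0.05 to 0.57 between tissues in control plants. The cause was not tested. Apart from KCl against water roots, same-numbered arrays did not all correlate above 0.1 in the comparisons checked, which were within a tissue. With the block the difference stayed 3.77 for AT3G17130 in TiO2 roots, where the call ended. For AT3G10720 in TiO2 leaves it stayed 3.27 and came to pass. After median centring the median over all probe sets was -0.16 for TiO2 leaves and -0.20 for the particle difference in leaves, against -0.07 and -0.09 as reported.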

Other observations

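Other genes of the lists had higher means in TiO2 and water roots than in KCl and CeO2 roots without passing any test there. They were chosen after their values were seen. AT3G47380, of the inhibitor family, averaged 11.04 ± 1.42 in TiO2 roots, 6.81 ± 2.61 in KCl roots, 6.86 ± 1.33 in CeO2 roots and 9.96 ± 0.61 in water roots, and its TiO2 effect exceeded its CeO2 effect by 7.33 ± 1.70 (limma adjusted p = 0.0997). AT5G62360, of the same family, averaged 13.04 ± 0.90, 8.95 ± 2.30, 9.19 ± 3.73 and 12.56 ± 0.54 in the same order, a difference of 7.46 ± 2.31 (limma adjusted p = 0.197). Its CeO2 root arrays read 12.24, 10.30 and 5.04, and the first lay above the lowest TiO2 (12.01) and water (11.94) root arrays. The polygalacturonase AT1G48100 stood at 5.60 ± 1.65 (limma adjusted p = 0.178). It averaged 9.11 ± 1.21, 5.78 ± 2.29, 5.79 ± 1.46 and 8.06 ± 1.24 in that order of groups. Its highest KCl root array (8.42) lay above its lowest TiO2 root array (8.19). With AT3G09540, AT3G47380 was 1 of 2 genes among the 82 whose KCl and CeO2 root arrays all lay below the TiO2 and water root arrays, and 0 showed the opposite split, beside 136 and 134 of all probe sets.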
